A study of Mus musculus with 6 samples.

Results

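The clock output genes described here are Dbp, Tef and Hlf, which encode the PAR bZIP transcription factors, Nfil3, Bhlhe40, Bhlhe41, Ciart and Usp2. They were taken by name from the deposited gene table, and 8 of its 25718 genes are members. All 8 passed the filter on low counts and were tested. RNA sequencing of primary hepatocytes measured their transcripts in 3 WT and 3 S100a16KO+/- libraries, all from mice given alcohol. S100a16KO+/- mice are heterozygous knockouts by the methods, although their samples are labelled as an S100A16 knockdown. These mice carried 1 deleted copy of S100a16, in which floxed exons 2 and 3 were removed with EIIa-Cre, which deletes in the early embryo and therefore in the whole body. Hepatocytes were obtained by collagenase perfusion and a Percoll gradient, and the methods describe keeping such cells in serum-containing DMEM, but whether the sequenced cells were cultured, and for how long, is not given in the sources used here. The mice were males of 8 to 10 weeks, kept in 12 h of light and 12 h of dark. By the methods the S100a16KO+/- line was almost but not fully C57BL/6, after a backcross and the cross to EIIa-Cre mice. The strain of the WT mice is not given there. All were fed control liquid diet for 5 days and a 5% ethanol diet for 10 days, and received 1 gavage of ethanol at 5 g/kg in the morning, 9 h before collection. No library came from mice without ethanol, and the clock hour at which each liver was taken is not given either. Each library gives 1 point of the daily cycle, so a change in level and a change in its timing cannot be told apart. A difference between the genotypes in the hour of collection cannot be told apart from either.

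In liver cells the heterodimer of CLOCK and BMAL1 binds E-box elements and drives genes whose protein products act back on it or carry its rhythm to other genes. DBP, TEF and HLF activate genes with a D-box element, many of them enzymes of drug, lipid and bile acid metabolism, and NFIL3 represses from the same element. DEC1 and DEC2, encoded by Bhlhe40 and Bhlhe41, and CIART, also called CHRONO, repress CLOCK and BMAL1 at E-boxes. USP2 is a deubiquitinating enzyme rather than a transcription factor, and its transcript is among those that cycle in many tissues.

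Promoter sequence was available from RefSeq on build GRCm38.p6 for 7 of the 8 genes, in windows of 250 bases before and 50 bases after each start site, with 2 windows for Tef. No window was available for Bhlhe40, and the Usp2 window and both Tef windows lie inside the gene. The first Tef window begins at 81802423, next to the outermost start of the gene at 81802421. The windows were searched on both strands for the E-box CACGTG, its variant CACGTT, the D-box TTATGTAA or TTACGTAA, the ROR element TAGGTCA or TGGGTCA, and the cAMP element TGACGTCA. No matches in these windows overlapped each other. Ciart, the gene with the largest difference between genotypes below, held 3 E-boxes, with first bases 116, 58 and 44 bases before the start site. The stretch from 150 to 25 bases before the start is printed because it contains all of them, in capitals, on the minus strand at chr3:95882253-95882378.
Ciart: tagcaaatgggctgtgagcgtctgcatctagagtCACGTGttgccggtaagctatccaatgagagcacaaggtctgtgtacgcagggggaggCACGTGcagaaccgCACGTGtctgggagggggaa
At least 1 E-box occurred in 7.15% of all 32851 windows and at least 3 in 0.0883%, which is 29 windows of 25 genes.

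Tef held 1 E-box in each of its windows and Bhlhe41 held 1, so that 3 of the 7 genes had this element. Counted by gene over all its windows, 8.09% of 27025 genes had it. The single matches are printed as 30-base stretches, with the match in capitals, to set the E-boxes of the activator Tef and the repressor Bhlhe41 beside the different elements of Hlf and Nfil3.
Tef, first window, plus strand, chr15:81802534-81802563: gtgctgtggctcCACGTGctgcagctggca
Tef, second window, plus strand, chr15:81811264-81811293: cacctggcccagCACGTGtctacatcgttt
Bhlhe41, minus strand, chr6:145865556-145865585: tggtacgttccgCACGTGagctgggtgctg
Hlf, minus strand, chr11:90390909-90390938: cggtgcgggcccTGACGTCActcttgtcag
Nfil3, minus strand, chr13:52981034-52981063: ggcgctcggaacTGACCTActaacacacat
The Hlf match is the cAMP element, found in 1.79% of all windows, and the Nfil3 match is the ROR element read on the other strand, found in 6.45%. The windows of Dbp and Usp2 held none of the letters searched, and no window of these genes held the CACGTT variant (4.68% of all windows) or the D-box (1.06%). These matches describe letters in short windows and not sites of binding.

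**Figure D1:**
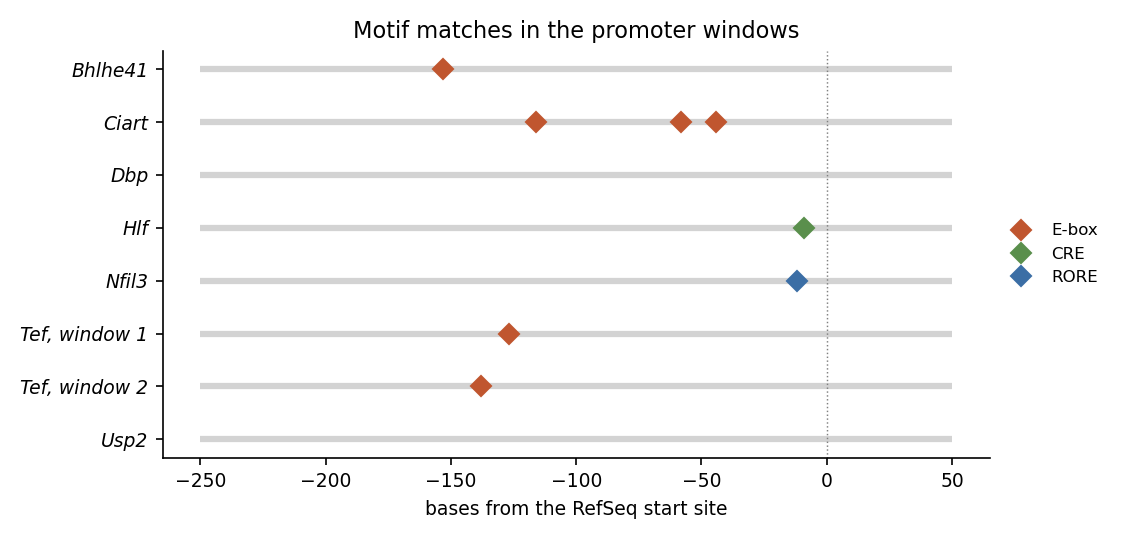
Position of each motif match along the promoter windows of the clock output genes, in bases from the RefSeq start site, with 1 grey line per window and 1 diamond at the first base of each match. Ciart holds 3 E-boxes, both Tef windows and the Bhlhe41 window hold 1 each, Hlf holds a cAMP element (CRE), Nfil3 a ROR element (RORE), and Dbp and Usp2 hold none.

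The libraries held between 67658095 and 71807834 estimated counts, at about 4 counts per sequenced fragment, and a count of 0 therefore allows up to 3 fragments, or 12 counts. The targeted gene checked the labels, since S100a16 was at 38.0% of its WT level in S100a16KO+/- hepatocytes (log2 fold change -1.40, SE 0.11), with no overlap between genotypes. Mitochondrial transcripts took 21.1% of the counts of WT replicate 1 and 20.1% of S100a16KO+/- replicate 2, against 16.98% to 18.65% in the other libraries. For Tef and Bhlhe41 below, the value without both of these libraries is given. Hepatocyte markers such as Alb were abundant in every library, and their sum overlapped between genotypes (114350 to 126140 CPM in WT and 111560 to 122810 CPM in S100a16KO+/-). Most of this sum was Alb, with mean CPM of 88524 in WT and 85458 in S100a16KO+/- libraries, so it says little of the other markers. The nature of the replicates beyond 3 samples per group is not stated, so the p-values measure the spread between these samples.

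Compared with WT hepatocytes, S100a16KO+/- hepatocytes had less Ciart, Bhlhe40, Hlf, Usp2, Tef and Dbp and more Nfil3. With edgeR's quasi-likelihood test and Benjamini-Hochberg adjustment over all 15957 tested genes, 7 of the 8 genes passed an adjusted p of 0.05, of which 6 were lower and 1 was higher. Of all tested genes 22.8% were called in this comparison, 11.2% lower and 11.6% higher in S100a16KO+/- hepatocytes. The share was larger among better expressed genes, with 3749 of 12031 called when at least 1 CPM in 3 libraries was required. The 22.8% set beside the lists below includes many genes with lower counts than those of the lists. The libraries of the genotypes did not overlap for the same 7 genes, against 37.9% of all tested genes (18.6% lower and 19.2% higher). The median log2 fold change of the 8 genes was -0.43, beside 0.01 for all tested genes. The study's own criterion, an unadjusted p under 0.05 and at least a 2-fold change, was met by Ciart alone, against 4.52% of all tested genes and 1.62% in its direction, lower. Between replicates of a genotype the 7 called genes varied by 2.64% to 10.4% (coefficient of variation of CPM).

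**Figure D2:**
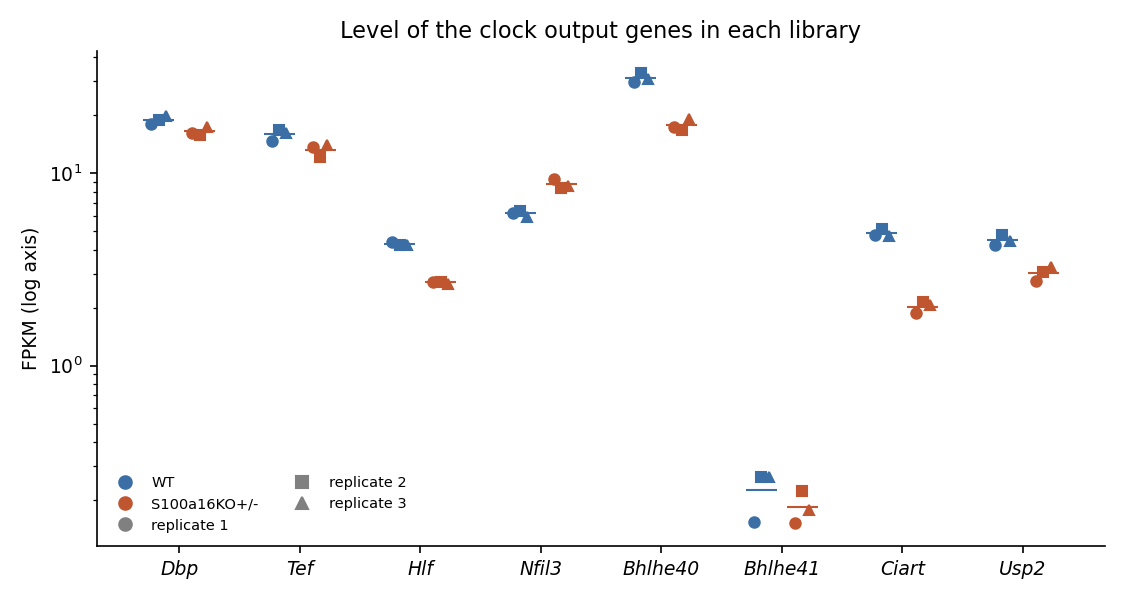
FPKM of each clock output gene in each library, on a log axis. Points are single libraries, with the replicate given by the symbol, and horizontal lines are group means of 3 libraries. Every S100a16KO+/- point lies below every WT point for Ciart, Bhlhe40, Hlf, Usp2, Tef and Dbp and above for Nfil3, while the groups overlap for Bhlhe41.

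Among the PAR bZIP factors, Hlf (ENSMUSG00000003949, chromosome 11 from 90336536 to 90390895, minus strand) changed most. Its level was 4.37, 4.25 and 4.25 FPKM in WT replicates 1, 2 and 3 and 2.73, 2.73 and 2.67 FPKM in S100a16KO+/- replicates 1, 2 and 3. FPKM is scaled for transcript length and library size, so it also serves to compare genes. The S100a16KO+/- values were close together and all lay far below the lowest WT value. Hlf fell to 62.8% of its WT level (percentages of WT are from mean CPM), a log2 fold change of -0.67 (SE 0.08, adjusted p = 1.61e-05, edgeR).

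Tef (ENSMUSG00000022389, chromosome 15 from 81802421 to 81826863, plus strand) had 14.6, 16.8 and 16.1 FPKM in the WT libraries and 13.6, 12.1 and 14.0 FPKM in the S100a16KO+/- libraries. The groups did not overlap, but the lowest WT value, that of replicate 1, was near the highest S100a16KO+/- value. Tef fell to 83.0% of its WT level, a log2 fold change of -0.27 (SE 0.05, adjusted p = 0.00159, edgeR). Without WT replicate 1 and S100a16KO+/- replicate 2 together it was also -0.27 (adjusted p = 0.000762, edgeR). In limma on the FPKM values, scaled by the authors and not by TMM, this difference did not pass, with adjusted p values from 0.0790 to 0.145 over 3 settings.

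Dbp, the best known of the clock's output factors, showed the smallest of the called differences. Dbp (ENSMUSG00000059824, chromosome 7 from 45705088 to 45710203, plus strand) had 18.0, 18.9 and 19.8 FPKM in the WT libraries and 16.3, 15.8 and 17.4 FPKM in the S100a16KO+/- libraries. All S100a16KO+/- values lay below the WT values by a narrow margin. Dbp fell to 86.8% of its WT level, a log2 fold change of -0.20 (SE 0.06, adjusted p = 0.0159, edgeR). The call was lost without WT replicate 3 (-0.18, adjusted p = 0.0752), without S100a16KO+/- replicate 1 (-0.18, adjusted p = 0.0734) and in limma on FPKM (adjusted p from 0.0957 to 0.160). Exons of Sphk2 on the other strand cover 18.0% of the exonic bases of Dbp, and Sphk2 had a log2 fold change of 0.12 that did not pass (adjusted p = 0.238, edgeR). The library protocol marks strand, and whether the counting used it is not given in the sources used here.

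Added up, the PAR bZIP factors had 37.0, 39.9 and 40.2 FPKM in the WT libraries and 32.6, 30.6 and 34.1 FPKM in the S100a16KO+/- libraries. The sum was lower in every S100a16KO+/- library than in any WT library. Dbp made up 48.4% ± 1.05 of the sum in WT and 50.8% ± 0.868 in S100a16KO+/- hepatocytes (SD, n = 3 each), Tef 40.6% ± 1.36 and 40.8% ± 1.14, and Hlf 8.37% ± 0.542 in S100a16KO+/- hepatocytes, against 11.8%, 10.6% and 10.6% in the WT libraries. The share of Hlf was lower and that of Dbp higher in every S100a16KO+/- library than in any WT library, while the share of Tef overlapped.

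Nfil3, the repressor that acts at the D-box against the PAR bZIP factors, was the only member that was called higher. Nfil3 (ENSMUSG00000056749, chromosome 13 from 52967209 to 52981073, minus strand) had 6.19, 6.39 and 5.95 FPKM in the WT libraries and 9.29, 8.32 and 8.61 FPKM in the S100a16KO+/- libraries. The lowest S100a16KO+/- library was well above the highest WT library. Nfil3 rose to 140.6% of its WT level, a log2 fold change of 0.49 (SE 0.08, adjusted p = 0.000677, edgeR).

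Set against each other, the summed PAR bZIP level was 5.98, 6.25 and 6.76 times the level of Nfil3 in the WT libraries and 3.51, 3.68 and 3.96 times in the S100a16KO+/- libraries, both in FPKM. The means were 6.33 ± 0.391 and 3.72 ± 0.228 (SD, n = 3 each). This ratio combines genes already tested above and is given as a description without a test.

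**Figure D3:**
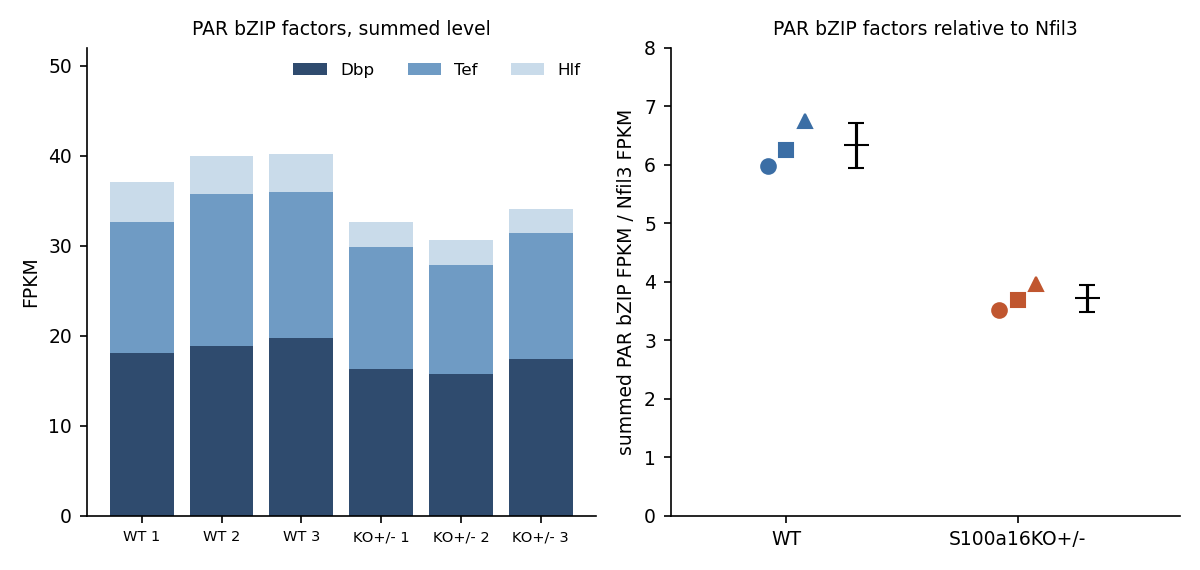
Left, stacked bars of the FPKM of Dbp, Tef and Hlf in each library, with KO+/- for S100a16KO+/-. Right, the summed FPKM of these genes divided by the FPKM of Nfil3, with 1 point per library and the mean and SD of 3 libraries beside them. The sum lies between 37.0 and 40.2 FPKM in WT and between 30.6 and 34.1 FPKM in S100a16KO+/-, and the ratio falls from a mean of 6.33 to one of 3.72.

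Among the repressors that act at the E-box, Ciart and Bhlhe40 showed the largest differences of all members. Ciart (ENSMUSG00000038550, chromosome 3 from 95878503 to 95882231, minus strand) had 4.79, 5.12 and 4.74 FPKM in the WT libraries and 1.87, 2.13 and 2.07 FPKM in the S100a16KO+/- libraries. No S100a16KO+/- library came near the lowest WT value. Ciart fell to 41.4% of its WT level, a log2 fold change of -1.27 (SE 0.11, adjusted p = 1.75e-06, edgeR), and only 4.32% of all tested genes had a larger absolute change. Ciart lies on the chromosome of S100a16, at a distance of 5.34 Mb. Whether the genotypes also differ in DNA from another strain around S100a16 was not tested.

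Bhlhe40 (ENSMUSG00000030103, chromosome 6 from 108660629 to 108666925, plus strand) was the most abundant member in WT hepatocytes, with 29.8, 33.0 and 30.8 FPKM. In the S100a16KO+/- libraries it had 17.4, 16.7 and 19.0 FPKM, all far below the WT values. Bhlhe40 fell to 56.4% of its WT level, a log2 fold change of -0.83 (SE 0.05, adjusted p = 4.64e-08, edgeR).

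Its paralog Bhlhe41 (ENSMUSG00000030256, chromosome 6 from 145858243 to 145865558, minus strand) was the least abundant member. It had 0.154, 0.263 and 0.264 FPKM in the WT libraries and 0.152, 0.223 and 0.177 FPKM in the S100a16KO+/- libraries, so that the groups overlapped. These levels rest on 79 to 136 estimated counts per library, whereas no other member had fewer than 322. The log2 fold change of Bhlhe41 was -0.28 (SE 0.27, adjusted p = 0.526, edgeR), with a 95% interval from -0.87 to 0.30. This interval, from the spread between libraries, holds 0 and also the value of Bhlhe40. A transcript annotated on the other strand, Gm43909, shares 1280 of the 6720 exonic bases of Bhlhe41 and had at most 21 counts in a library. The value of Bhlhe41 depended on single libraries, with -0.15 without S100a16KO+/- replicate 1, -0.17 without WT replicate 3, -0.47 without WT replicate 1 and -0.49 without S100a16KO+/- replicate 2. It was -0.68 (adjusted p = 0.134) without WT replicate 1 and S100a16KO+/- replicate 2 together and -0.05 in limma on log2(FPKM + 1), and it passed the threshold in none of these.

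Usp2 (ENSMUSG00000032010, chromosome 9 from 44067021 to 44095627, plus strand) had 4.24, 4.78 and 4.42 FPKM in the WT libraries and 2.76, 3.08 and 3.25 FPKM in the S100a16KO+/- libraries. The groups were clearly apart. Usp2 fell to 67.4% of its WT level, a log2 fold change of -0.57 (SE 0.09, adjusted p = 0.000222, edgeR).

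By mean FPKM, the order in WT hepatocytes was Bhlhe40 (31.2), Dbp (18.9), Tef (15.9), Nfil3 (6.18), Ciart (4.88), Usp2 (4.48), Hlf (4.29) and Bhlhe41 (0.227). The libraries of Ciart and Usp2 overlapped, as did those of Usp2 and Hlf, while the other neighbours in this order were apart. In S100a16KO+/- hepatocytes Bhlhe40 (17.7) and Dbp (16.5) overlapped, and Ciart (2.03) stood below Usp2 (3.03) and Hlf (2.71), with the libraries of these genes apart.

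The core clock genes, which drive and feed back on the members, were compared from a list of 12. Of the 11 tested, 9 were called, 7 lower and 2 higher, with a median log2 fold change of -0.23. This is 81.8%, against 22.8% of all tested genes. The largest falls were those of Per2 (-0.60), Per3 (-0.56) and Clock (-0.51), with adjusted p values of 1.16e-05, 7.01e-06 and 0.000134 (edgeR). The period gene Per1 rose by contrast, by 1.13 on the log2 scale (SE 0.06, adjusted p = 1.09e-08, edgeR), with mean CPM of 22.8 ± 0.883 in WT against 49.9 ± 1.86 in S100a16KO+/- libraries (SD, n = 3 each). Cry1, a repressor whose transcript peaks late in the cycle, rose by 0.55. Arntl, which encodes BMAL1, had 0.45 and did not pass (adjusted p = 0.105). Npas2 was not tested, at no more than 11 counts in any library.

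Kinases and ubiquitin ligases that set the stability of the clock proteins formed a list of 13, all tested. Of these, 3 were called, all lower, namely Prkaa2 (-0.30), Gsk3b (-0.28) and Csnk1a1 (-0.23). Fbxl21, a ligase subunit for the cryptochromes, had the largest value of the list (-0.75) without overlap between genotypes but did not pass (adjusted p = 0.0572, edgeR). The called share of 23.1% is close to the 22.8% of all tested genes. Without WT replicate 3 only 1 of them was called.

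Genes known to be activated by the PAR bZIP factors in liver were taken from a list of 11, all tested. Of these, 7 were called, 5 lower and 2 higher, with a median log2 fold change of -0.16. Their share was 63.6%, against 22.8% of all tested genes. Cyp2b10, a phenobarbital-inducible cytochrome, had the largest fall, with mean CPM of 327.6 ± 15.1 in WT against 104.8 ± 5.95 in S100a16KO+/- libraries (SD, n = 3 each). Its log2 fold change was -1.64 (edgeR, adjusted p = 8.22e-11). Cyp7a1, the rate-limiting enzyme of bile acid synthesis, fell by 0.69 on the log2 scale and Cyp2c37 by 0.51. Cyp2a4 rose by 0.73 and Alas1, the first enzyme of heme synthesis, by 0.17. The cytochromes of this list have close paralogs with which reads could be shared, so their single values are uncertain.

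The other rhythmic liver transcripts of a list of 10 moved in both directions, with 5 called higher, 2 called lower and 3 not called. Thus 70% were called, against 22.8% of all tested genes. Lpin1, a phosphatidate phosphatase, was highest, with mean CPM of 45.6 ± 2.63 in WT against 173.6 ± 0.259 in S100a16KO+/- libraries (SD, n = 3 each). Its log2 fold change was 1.93 (edgeR, adjusted p = 1.19e-11). Coq10b rose by 1.12 and Noct, a phosphatase with a nocturnal transcript, by 0.81. Wee1, a kinase of the cell cycle under control of the clock, fell by 1.15 on the log2 scale and Lonrf3 by 0.84. The count of called genes in this list was 4 in limma on FPKM.

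**Figure D4:**
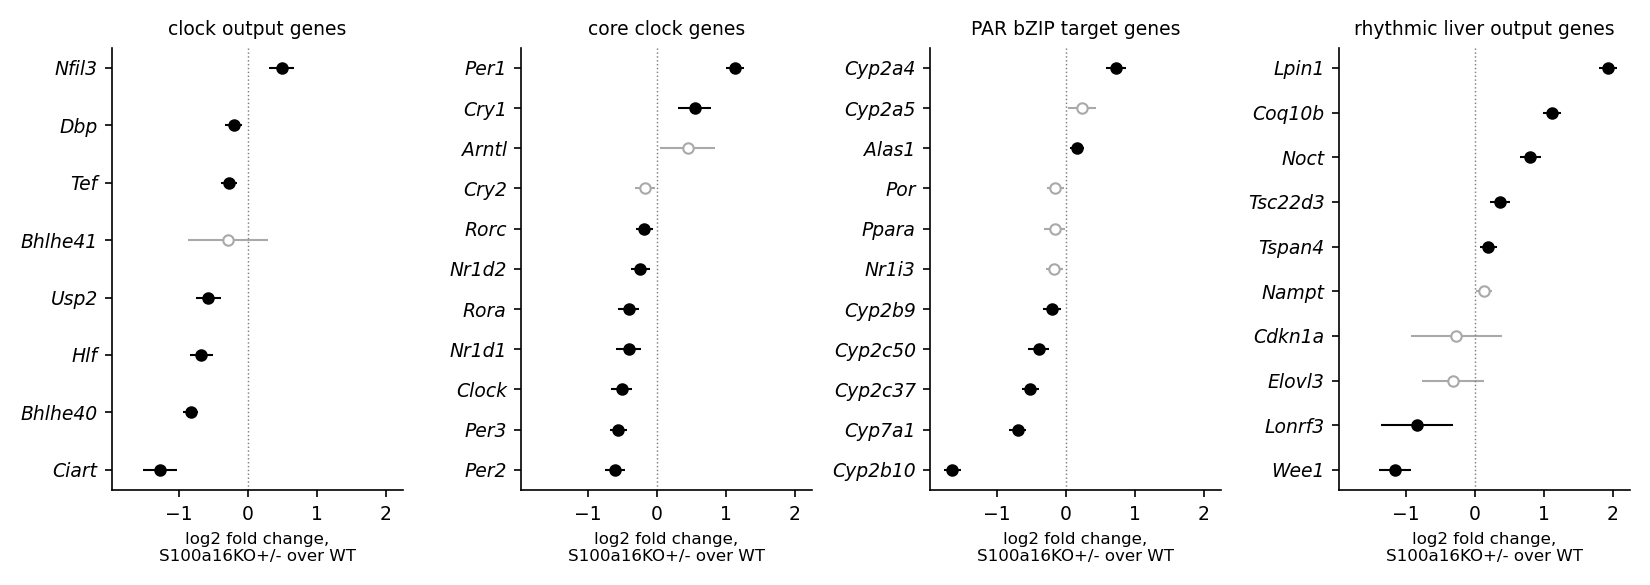
Log2 fold change of S100a16KO+/- over WT hepatocytes for the tested genes of each list, with 95% intervals of the edgeR fit as horizontal lines. Filled black points passed an adjusted p of 0.05 and open grey points did not. Ciart has the lowest value of the clock output genes (-1.27) and Nfil3 is their only called rise (0.49). Per1 rises among the core clock genes and Lpin1 is the highest of the other rhythmic genes.

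The genes whose profile over the 6 libraries was closest to each member were found by the root mean square distance of centred log2(CPM + 1) values among tested genes with at least 1 CPM on average. For Ciart they were Foxa3 (distance 0.0598) and Cyp4a14 (0.0621), and for Bhlhe40 they were Bcl6 (0.0341) and Aldh3a2 (0.0360). With 2 groups of 3 libraries and little spread within them, this distance mostly reflects the difference between genotypes. Shared control of these genes was not tested. The added 1 narrows the changes of genes at low CPM. Bcl6, at mean CPM of 5.41 in WT and 2.65 in S100a16KO+/- libraries, had a log2 fold change of -1.03, against -0.83 for Bhlhe40. Acox2 (0.0205) and Lima1 (0.0239) were closest to Hlf, Gorasp2 (0.0212) and Cpt1a (0.0248) to Nfil3, and Nfe2l2 (0.0382) and Spns2 (0.0479) to Usp2. Pank1 (0.0176) and Trip12 (0.0183) were closest to Tef, Marchf2 (0.0150) and Rrp15 (0.0171) to Dbp, and Sowahc (0.0563) and Gm44950 (0.0572) to Bhlhe41. Of these, Rrp15, Sowahc and Gm44950 did not pass (adjusted p = 0.205, 0.660 and 0.521, edgeR).

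RNA of endothelial, stellate and red cells also differed between the genotypes. In bulk samples, fewer cells of a type and less RNA per cell cannot be told apart. Of 8 endothelial markers 7 were called higher and 1 lower, with sums of 210.7 to 223.8 CPM in WT and 301.1 to 309.0 CPM in S100a16KO+/- libraries. Of 8 stellate cell markers 5 were called higher, with sums of 39.7 to 43.5 and 71.5 to 79.0 CPM. All 5 red cell markers were called lower, with sums of 214.8 to 252.2 and 23.4 to 26.3 CPM. Of 8 macrophage markers 2 were called higher, Marco and Cd68, a share of 25% that is close to the 22.8% of all tested genes. The macrophage sums overlapped, at 130.7 to 160.0 CPM in WT and 153.6 to 167.6 CPM in S100a16KO+/- libraries. The lists for bile duct cells and lymphocytes summed to at most 10.6 CPM in any library. In each, 1 gene was called lower, of 4 and 6 tested. Hepatocyte markers were called lower for Ttr and Cyp3a11 and higher for Tat, with 7 of 10 not called. The part of other cells in the differences of the clock output genes was not tested.

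The direction of all 8 genes held under every alternative tried, and the side of the threshold held under all of them for Ciart, Bhlhe40, Hlf, Nfil3, Usp2 and Bhlhe41. When single libraries were omitted, the log2 values ranged between -1.36 and -1.21 for Ciart, between -0.85 and -0.81 for Bhlhe40, between -0.72 and -0.62 for Hlf, between -0.62 and -0.50 for Usp2 and between 0.45 and 0.53 for Nfil3.

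**Figure D5:**
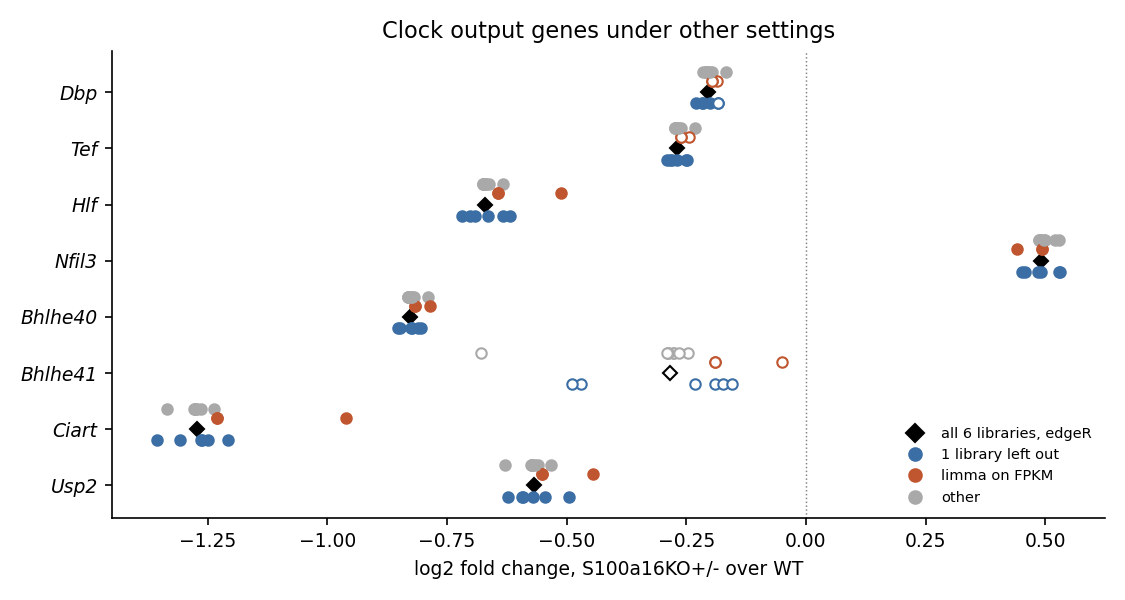
Log2 fold change of each clock output gene with all 6 libraries (black diamond), with 1 library left out (blue), with limma on FPKM (orange) and under the other alternatives (grey). Filled symbols passed an adjusted p of 0.05 and open ones did not. The symbols of each gene stay on 1 side of 0, and those of Dbp and Tef are partly open.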

How the data were processed

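Primary hepatocytes from 3 WT and 3 S100a16KO+/- libraries were analysed, grouped by their titles. The authors deposited estimated counts, not scaled for library size, and FPKM values, scaled by the authors for transcript length and library size. The submitters' processing notes name cutadapt 1.9, HISAT2 2.0.4, UMI-tools, StringTie 1.3.4d, DESeq2 and edgeR and build mm10, without their roles. Counts clustered at 4 (936 genes in WT replicate 1, against 561 at 3 and 259 at 5), so that the floor of 3 fragments is 12 counts and covers counting error only. The 95% intervals of fold changes come from the edgeR fit to the undivided counts and include the spread between libraries. Counts were rounded, filtered with filterByExpr, scaled with TMM and tested with edgeR 4.0.16 in R 4.3.3 (robust quasi-likelihood, genotype only, two-sided). Genes were called at an adjusted p under 0.05. DESeq2 1.42.0, limma 3.58.1 on log2(FPKM + 1) or log2(FPKM + 0.1), other filters and scalings, the replicate block and leaving out libraries were alternatives. The tests were checked on simulated counts. The members, gene lists and tests were chosen with earlier results of these data known. The named genes are the members, those with the 3 highest and 3 lowest called changes of each list, their nearest profiles, and others named for their role after their values were seen (Arntl, Npas2, Sphk2, Gm43909, Fbxl21, Fkbp5, Fos and Alb). GENCODE M21 gave gene models.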

Additional observations from a re-analysis of the deposited data

How the results depend on the processing

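Of 136 values of the members under 17 alternatives each, 128 stayed on the side of the threshold that the gene had in the main fit, called or not. None changed direction. In limma on log2(FPKM + 1), log2(FPKM + 0.1) and the latter without a filter, Dbp had -0.19, -0.20 and -0.20 and Tef -0.25, -0.26 and -0.26, none past the threshold. With 1 library left out Dbp ranged from -0.23 to -0.18. In the same 3 limma settings 2316, 2305 and 1718 genes were called among all tested, 4, 4 and 4 of the rhythmic liver genes, and 0 of the clock kinases and ligases, of which 3 had an unadjusted p under 0.05. edgeR and DESeq2 each called 3 of those, and 1 to 3 with 1 library left out. By the study's criterion the counts were 721 for all tested genes, 1 member, 1 core clock gene, 1 PAR bZIP target, 3 rhythmic, 3 glucocorticoid and 3 immediate early genes, and 0 kinases and ligases (6 at an unadjusted p under 0.05). The cause was not tested. The replicate numbers do not pair the libraries (correlations of deviations -0.01, -0.02 and 0.00); with the replicate block 7 members and 3082 genes were called. Leaving out WT replicate 1 and S100a16KO+/- replicate 2 together, chosen after seeing the data, left 7 members called. Bhlhe41, with the fewest counts, ranged from -0.68 to -0.05 and was never called.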

Other observations

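Some of the members and their relatives also respond to hormones and to acute stimuli, so lists for these responses were compared as well. Of 10 glucocorticoid response genes, 7 were called higher and 2 lower in S100a16KO+/- hepatocytes (median log2 fold change 0.37). That is a called share of 90%, against 22.8% of all tested genes. Pck1, the gluconeogenic enzyme, rose by 1.36 on the log2 scale (edgeR, adjusted p = 2.39e-11) and Zbtb16 by 1.34. Per1 of the core clock list and Tat of the hepatocyte markers belong to this list too. It also shares a gene called higher with the rhythmic liver list. Mt2 fell by 0.64 and Sgk1 by 0.44 on the log2 scale, while Fkbp5 had -0.00 and did not pass (adjusted p = 0.987).

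Of 14 immediate early genes, which mark acute stimulation and cell isolation, 4 were called higher and 4 lower (median -0.04). Called genes made up 57.1% of this list, against 22.8% of all tested genes. Fosb rose by 1.12 and Btg2 by 0.98 on the log2 scale, and Ier3 rose too, whereas Atf3, a stress-induced factor, had -1.60 (adjusted p = 1.02e-06, edgeR), Dusp1 had -0.46 and Egr1 -0.36. Fos, itself called higher with 0.89, and Atf3 thus differed in opposite directions, and the summed level of the list overlapped between the genotypes (895.6 to 949.2 CPM in WT and 872.8 to 949.5 CPM in S100a16KO+/-). Abundant genes weigh most in this sum, since mean WT CPM was 126.9 for Egr1 but 5.31 for Fosb and 1.10 for Ier3.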
